A study of Homo sapiens with 12 samples.

Results

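The genes described here are 10 genes for death receptors, related tumour necrosis factor (TNF) receptors and inhibitor of apoptosis (IAP) proteins, chosen by symbol from the 25540 genes listed in both deposited expression tables. They are FAS, TNFRSF10A, TNFRSF10B, TNFRSF1A, TNFRSF21, TNFRSF11B, TNFRSF12A, BIRC2, BIRC3 and XIAP. RNA-seq was made from LS411N, an established human colon cancer cell line, and from LS411N-BR, a derivative that resists BRAF inhibitors and was grown in 4 µM of such an inhibitor. Both lines carried a puromycin-selected, doxycycline-inducible short hairpin RNA against MUC1, the gene of an epithelial mucin. The groups were LS411N-BR with 500 ng/ml doxycycline, LS411N-BR without it, LS411N with 500 ng/ml doxycycline and LS411N without it, each with 3 libraries, 12 in all, and 0.1% DMSO is named as the vehicle control. Whether cells with doxycycline also received DMSO is not stated, so that an effect of DMSO cannot be told apart from that of doxycycline. No library had doxycycline without the MUC1 hairpin, so effects of the drug and of the hairpin cannot be told apart, and the inhibitor and the resistant line cannot be told apart either. Cells were cultured in triplicate, and nothing states that these were separate experiments, so the p-values measure only the spread between these libraries, which may be technical.

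Death receptors are cell surface proteins of the TNF receptor superfamily whose cytoplasmic death domain binds adaptor proteins, which recruit and activate caspases. FAS is the receptor of FAS ligand, TNFRSF10A (DR4) and TNFRSF10B (DR5) are the death-inducing receptors of TRAIL, TNFRSF1A is the main TNF receptor, and TNFRSF21 (DR6) is a further receptor with a death domain. TNFRSF11B (osteoprotegerin) is a secreted decoy that binds RANKL and TRAIL, and TNFRSF12A (Fn14), the receptor of TWEAK, has no death domain. XIAP binds and inhibits caspases directly, while BIRC2 (cIAP1) and BIRC3 (cIAP2) are ubiquitin ligases of the TNF receptor complex that keep its signal directed at NF-kB. Colon epithelial cells are known to carry FAS and TRAIL receptors.

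MUC1 itself checked the labels. It had between 0.388 and 0.699 TPM (a share of all transcripts, scaled by gene length) in LS411N-BR with doxycycline and between 3.69 and 4.27 TPM without it, and between 0.814 and 0.986 TPM in LS411N with doxycycline against 4.54 to 6.10 TPM without it. The groups did not overlap, and the means were 87.2% lower in LS411N-BR and 81.9% lower in LS411N. Of 10 colon epithelial markers, 9 passed 1 TPM in every group and CDX1 did not exceed 0.0493 TPM. Of 8 immune markers, 7 were under 1 TPM in every library and PTPRC, which marks leukocytes, did not exceed 0.0034 TPM. The immune sum came almost wholly from CD68 and was 68.4 to 72.8 TPM in LS411N-BR with doxycycline, 33.7 to 36.2 TPM without it, 17.2 to 20.3 TPM in LS411N with doxycycline and 7.23 to 8.46 TPM without it. All 8 fibroblast and endothelial markers were under 1 TPM. The epithelial markers summed to 4109 to 4325 TPM in LS411N-BR with doxycycline, 2697 to 2879 TPM without it, 3013 to 3480 TPM in LS411N with doxycycline and 2111 to 2958 TPM without it. The part of CD68 or of these markers in the results was not tested.

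Read depth is unknown, since TPM keep no depth. Between 15116 and 17999 genes were above 0 in a library. Genes that RefSeq types as short RNAs took 46.9 to 50.8% of the TPM in LS411N-BR with doxycycline, 51.7 to 53.6% without it, 51.1 to 55.3% in LS411N with doxycycline, and 57.4, 57.4 and 46.4% in LS411N without it. Because TPM are shares, these shifts move every other gene, and the median log2 fold change of all genes tested was 0.18 in LS411N-BR and 0.08 in LS411N. Changes of the members and most counts of calls are therefore given as deposited and, beside that, after median-of-ratios rescaling, which brings the medians to -0.0017 and 0.0123. Changes of the other named genes are as deposited unless stated otherwise. They include the shift of all genes, whose median was 0.18 in LS411N-BR and 0.08 in LS411N. Replicate 3 of LS411N without doxycycline stood apart from its group, with SDs of the log2 difference of 0.242 and 0.245 to the other replicates, against 0.0915 to 0.124 in all other pairs of one group. Without it, the median of all genes tested in LS411N was 0.18, and the median of the difference between the lines was -0.0011 rather than 0.11. Calls of LS411N and of the difference that change without it are given both ways. RNA from bulk cultures cannot tell fewer cells of a kind from less RNA per cell.

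In LS411N-BR, 9 of the 10 members rose with doxycycline and none fell (limma on log2(TPM + 1), Benjamini-Hochberg adjusted p under 0.05 over all genes tested). That line had a background of 56.1% of 11322 genes called higher and 11.1% called lower. After rescaling, 7 members rose and none fell, where 32.3% of genes were called higher and 32.2% lower. In LS411N, 5 members rose and 1 fell, where 9.75% of 11281 genes were called higher and 3.43% lower. FAS, among these 5, was tested there only because its treated libraries reached 1 TPM. Rescaled, 6 rose and 1 fell in LS411N, where 18.8% of genes were called higher and 16% lower. Without replicate 3 of LS411N without doxycycline, 8 members rose and 1 fell in LS411N, where 53% of 11186 genes were called higher and 6.32% lower. The members' median was then 0.47. The members' median log2 fold change was 0.38 in LS411N-BR and 0.36 in LS411N as deposited, and 0.18 and 0.29 in the same order after rescaling. The plot of all 10 genes by library shows the values behind these counts.

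**Figure D1:**
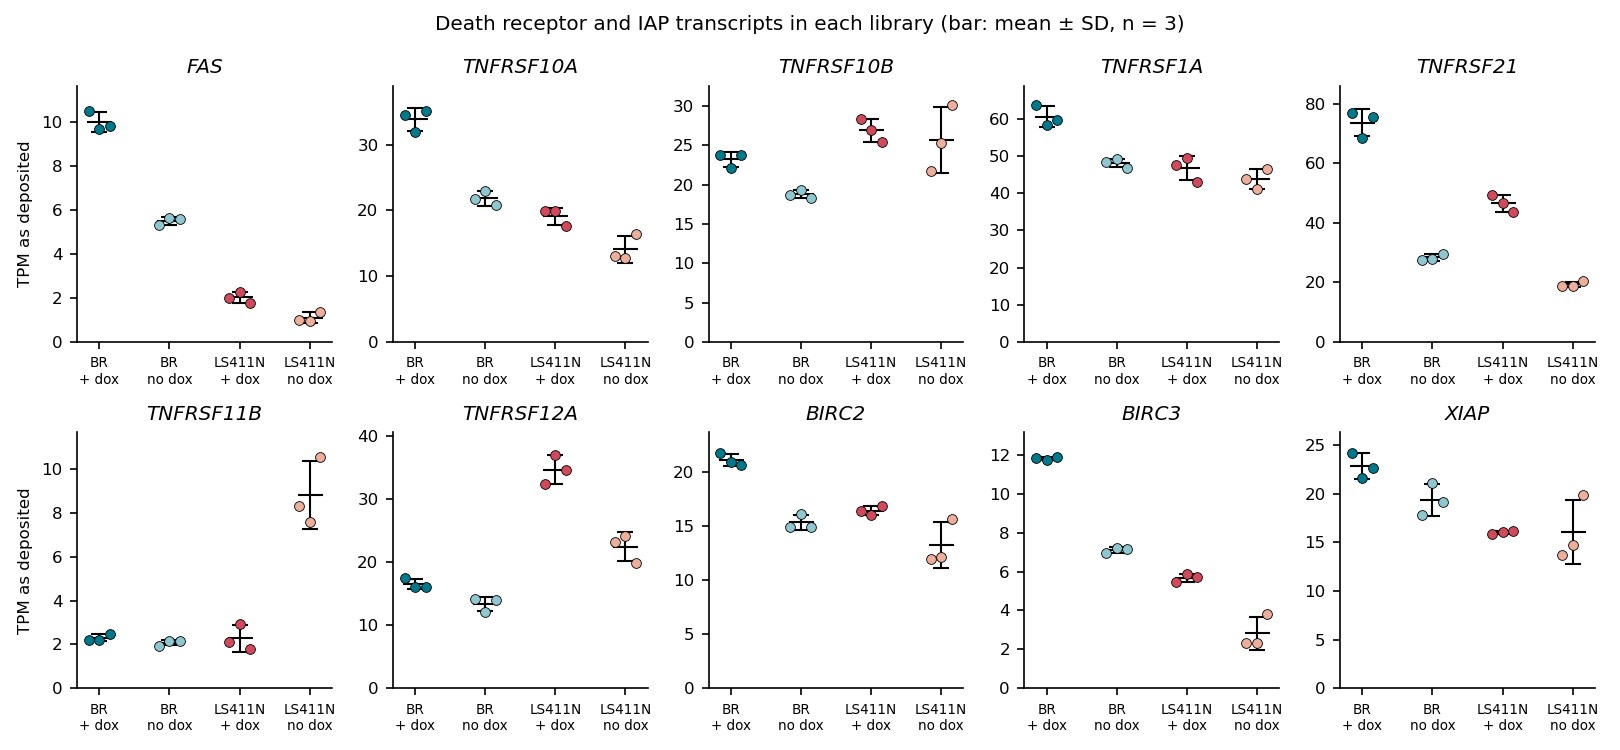
TPM of each of the 10 genes as deposited (vertical axis, linear from 0, with its own range per gene) in LS411N-BR (BR) and LS411N with (+ dox) and without (no dox) doxycycline. Points are libraries, in replicate order from left to right, and bars are the mean ± SD of 3; TNFRSF21 lies at 68.5 to 76.7 TPM in LS411N-BR with doxycycline against 27.6 to 29.5 TPM without it, and TNFRSF11B lies at 7.57 to 10.6 TPM only in LS411N without doxycycline.

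TNFRSF21 changed most among the members that rose. It had 76.7, 68.5 and 75.5 TPM in LS411N-BR with doxycycline, against 27.6, 27.8 and 29.5 TPM without it. In LS411N it had 49.3, 46.7 and 43.7 TPM with doxycycline, against 18.9, 18.8 and 20.3 TPM without it. Every treated library lay above every untreated library of its line, with a ratio of means of 2.60 in LS411N-BR and 2.41 in LS411N. The log2 fold change was 1.35 ± 0.06 (SE; limma adjusted p = 1.36e-96) in LS411N-BR and 1.23 ± 0.14 (limma adjusted p = 3.34e-09) in LS411N, and 1.14 and 1.15 after rescaling. These changes ranked 60 of 11322 and 50 of 11281 genes, counted from the highest. The p-values of LS411N-BR are very small because the moderation of limma replaced each gene's own spread by the fitted trend there.

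FAS, at a far lower level, rose in both lines. It had 10.5, 9.66 and 9.82 TPM in LS411N-BR with doxycycline, against 5.30, 5.63 and 5.59 TPM without it. In LS411N the level was 1.99, 2.28 and 1.78 TPM with doxycycline, against 0.980, 0.937 and 1.38 TPM without it. The groups of each line did not overlap, and the ratio of means was 1.81 in LS411N-BR and 1.84 in LS411N. The log2 fold change of TPM + 1 was 0.76 ± 0.07 (SE; limma adjusted p = 2.6e-26) in LS411N-BR and 0.53 ± 0.12 (limma adjusted p = 0.00139) in LS411N. Rescaled, FAS rose by 0.57 and 0.49 in the same order. The added 1 TPM shrinks the change of such a low gene: with a pseudocount of 0.1 TPM it was 0.84 in LS411N. Of its LS411N libraries without doxycycline, only that with 1.38 TPM reached 1 TPM. FAS thus passed the filter of 1 TPM there only through the libraries with doxycycline, so that a rise was favoured in that test. Without a filter on low genes, the call of FAS in LS411N was lost (limma adjusted p = 0.0633). No source states whether counting used strand, so reads of FAS and of its antisense gene may not have been separated.

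The TRAIL receptors moved unequally. TNFRSF10A had 34.5, 32.0 and 35.2 TPM in LS411N-BR with doxycycline, against 21.8, 23.0 and 20.8 TPM without it. The LS411N libraries had 19.9, 19.9 and 17.7 TPM with doxycycline, against 13.1, 12.7 and 16.4 TPM without it. All treated libraries were above the untreated ones of their line, though replicate 3 without doxycycline came close in LS411N. TNFRSF10A rose by 0.61 ± 0.06 (log2, SE; limma adjusted p = 6.27e-20) in LS411N-BR and by 0.42 ± 0.14 (limma adjusted p = 0.0355) in LS411N, and by 0.41 and 0.35 after rescaling. The call in LS411N was lost without any of the libraries other than replicate 3 of the untreated cells (limma adjusted p from 0.115 to 0.258) and without a filter on low genes (0.118); without that replicate 3 it was 5.66e-05.

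TNFRSF10B ranged from 22.2 to 23.7 TPM in LS411N-BR with doxycycline and from 18.3 to 19.4 TPM without it, with a ratio of means of 1.24 and a log2 fold change of 0.29 ± 0.07 (SE; limma adjusted p = 2.46e-05). LS411N libraries had 28.3, 27.0 and 25.4 TPM with doxycycline, against 21.7, 25.3 and 30.1 TPM without it, and the groups overlapped. Its log2 fold change there was 0.07 ± 0.14 (SE; limma adjusted p = 0.806), and the sign turned to -0.037 without replicate 1 of the untreated cells, while without their replicate 3 it was called higher at 0.19 (limma adjusted p = 0.0402). Rescaled, TNFRSF10B rose by 0.09 in LS411N-BR (limma adjusted p = 0.0307).

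TNFRSF1A, the most abundant member in 3 of the 4 groups, ranged from 58.3 to 63.9 TPM in LS411N-BR with doxycycline and from 46.9 to 49.2 TPM without it. Its log2 fold change there was 0.33 ± 0.06 (SE; limma adjusted p = 7.72e-07), and 0.12 after rescaling (limma adjusted p = 0.00578). In LS411N it ranged from 43.2 to 49.6 TPM with doxycycline and from 41.1 to 46.6 TPM without it, and the groups overlapped. The log2 fold change was 0.09, with a 95% interval from -0.19 to 0.37 (limma adjusted p = 0.75).

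**Figure D2:**
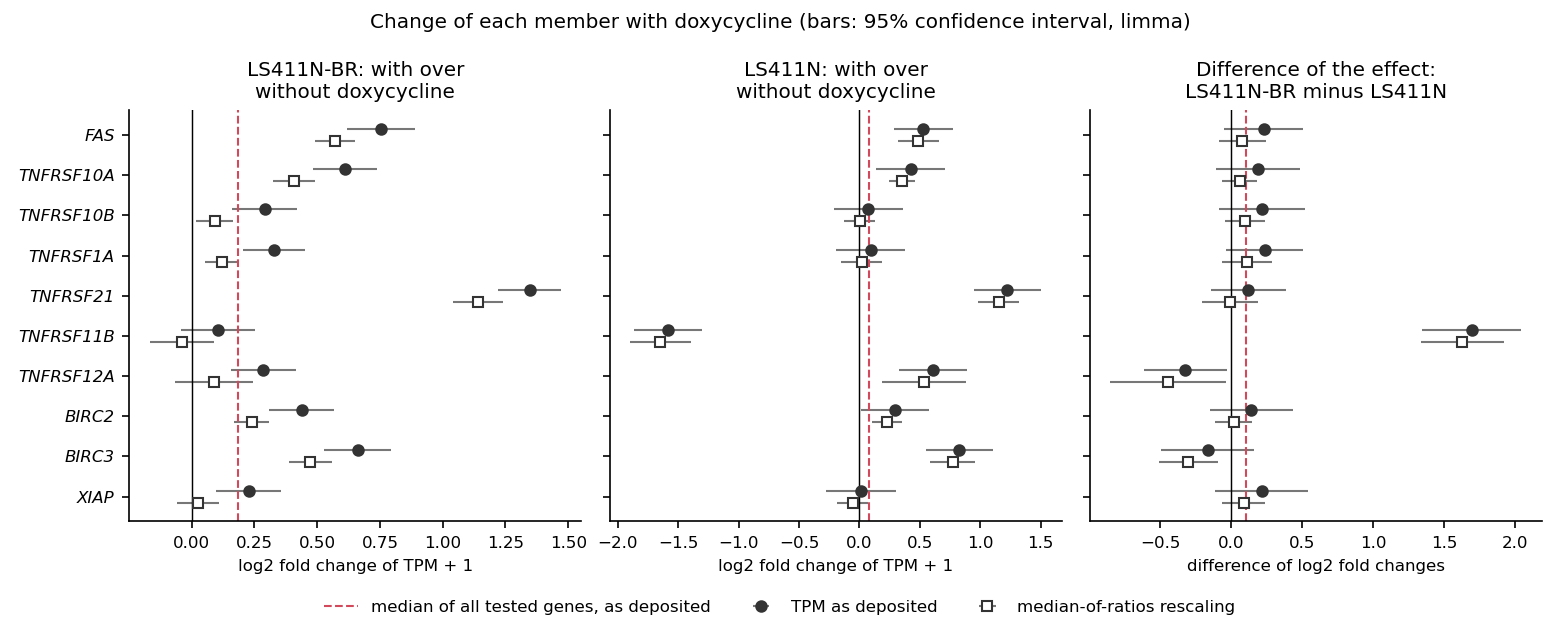
Log2 fold change of TPM + 1, with over without doxycycline, of each member in LS411N-BR and in LS411N, and the difference of these changes, LS411N-BR minus LS411N (horizontal axes, with their own ranges). Filled circles are TPM as deposited, open squares are after median-of-ratios rescaling, bars are 95% intervals of limma, and the dashed line is the median of all genes tested; TNFRSF21 lies at 1.35 and 1.23 in the 2 lines, and TNFRSF11B at 1.69 in the difference.

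TNFRSF11B, the osteoprotegerin gene, behaved differently in the lines. In LS411N-BR it had 2.20, 2.23 and 2.50 TPM with doxycycline, against 1.94, 2.14 and 2.15 TPM without it. In LS411N the level was 2.09, 2.95 and 1.78 TPM with doxycycline, against 8.32, 7.57 and 10.6 TPM without it. LS411N without doxycycline thus stood above the other groups, which lay between 1.78 and 2.95 TPM. TNFRSF11B fell in LS411N, where its mean was 74.2% lower and its log2 fold change -1.59 ± 0.14 (SE; limma adjusted p = 3.67e-12), 8th of 11281 genes from the lowest. In LS411N-BR the change was 0.11 ± 0.08 (limma adjusted p = 0.212), and -0.038 after rescaling. The difference of the effects, LS411N-BR minus LS411N, was 1.69 ± 0.17 (SE; 95% interval from 1.34 to 2.04; limma adjusted p = 1.5e-06), and 1.63 rescaled. It was the only member called for this difference as deposited, with a background of 1.39% of 11674 genes called higher and 0.728% lower; rescaled these were 4.37% and 5.81%, again with 1 member called. Its difference ranked 2 of 11674 from the highest.

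TNFRSF12A, lower in LS411N-BR than in LS411N, had 17.6, 16.1 and 16.1 TPM there with doxycycline, against 14.2, 12.2 and 13.99 TPM without it. Levels in LS411N were 32.4, 37.1 and 34.8 TPM with doxycycline, against 23.3, 24.2 and 19.8 TPM without it. Treated libraries lay above untreated ones in both lines. The log2 fold change was 0.29 ± 0.07 (SE; limma adjusted p = 4.69e-05) in LS411N-BR and 0.61 ± 0.14 (limma adjusted p = 0.00158) in LS411N. Rescaled, the change in LS411N-BR was 0.09 and no longer called (limma adjusted p = 0.28), while that in LS411N was 0.54 (0.0261). The difference of the effects was -0.32 ± 0.14 with a 95% interval from -0.61 to -0.03 before adjustment, and it was not called (limma adjusted p = 0.323).

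**Figure D3:**
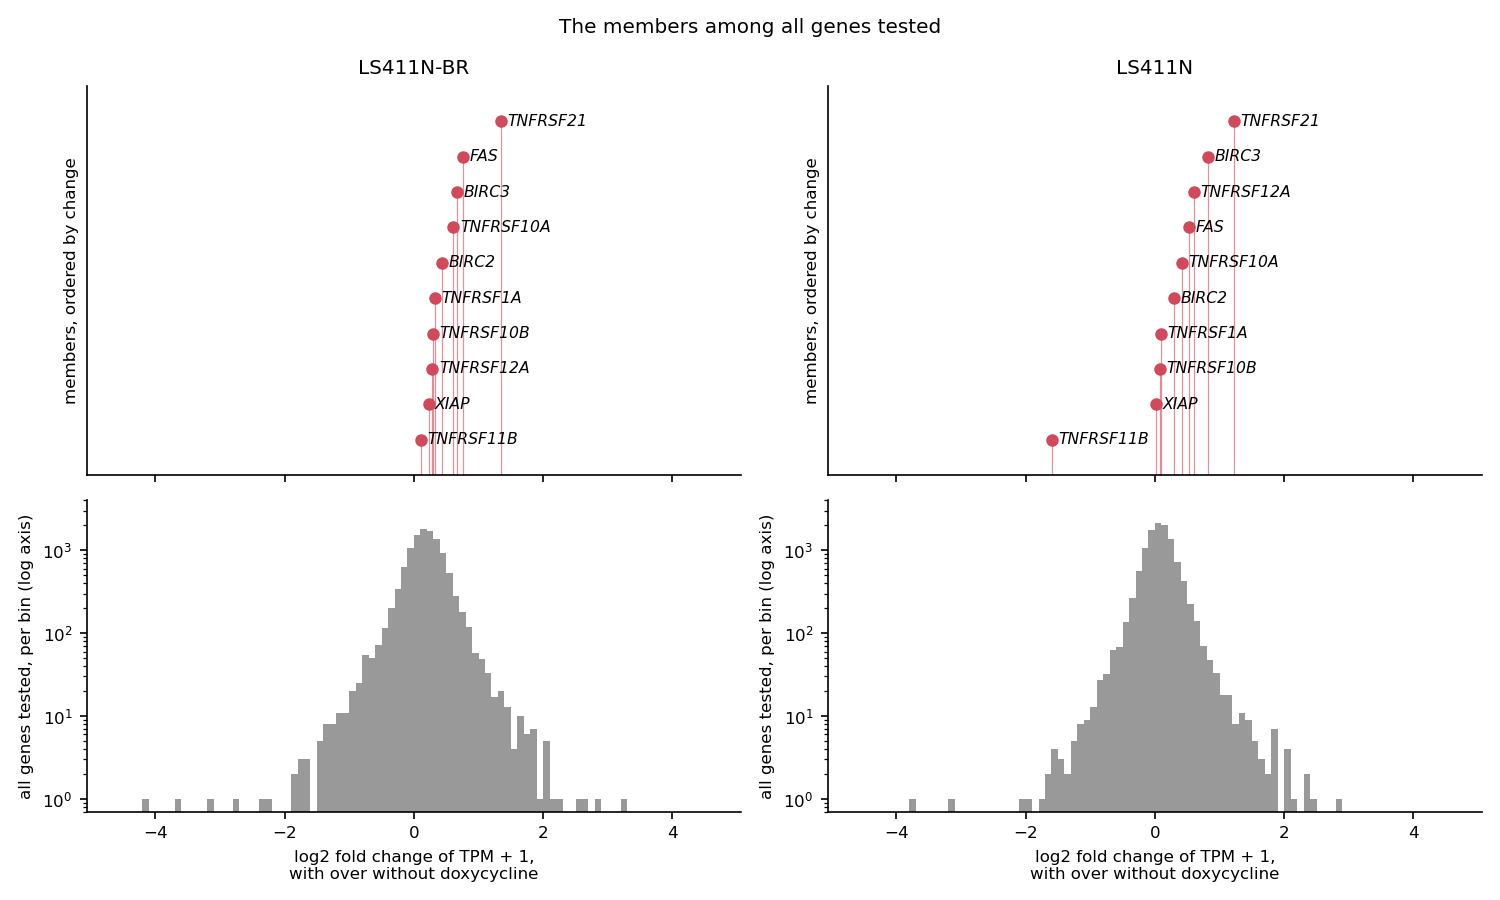
The 10 members (upper panels, ordered by change) above the distribution of all genes tested (lower panels, number of genes per bin of 0.1, log axis), by log2 fold change of TPM + 1, with over without doxycycline. TNFRSF21 is rank 60 of 11322 from the highest in LS411N-BR and 50 of 11281 in LS411N, while TNFRSF11B lies near the bulk in LS411N-BR and 8th from the lowest in LS411N.

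BIRC3 and BIRC2 lie next to each other on chromosome 11, on the same strand, at 102317484 to 102339403 and 102347214 to 102378670, with 7810 bases between them (RefSeq, GRCh38.p14). FAS lies on chromosome 10 at 88964050 to 89017059. The promoter windows of these genes are shown because the levels and changes of the neighbours BIRC3 and BIRC2 are set side by side, and because a FAS window holds an NF-kB match. Of the FAS windows, only the one with that match is printed. The others begin at 88990548 and 88990664, so that the match lies downstream of their annotated starts. Of the receptors, windows are reported here for FAS, TNFRSF1A and TNFRSF21. Each window, from RefSeq on GRCh38.p14 and on the plus strand, holds 250 bases before and 50 after an annotated start, and capitals mark matches to the NF-kB consensus on either strand.
BIRC3 chr11:102317234-102317533: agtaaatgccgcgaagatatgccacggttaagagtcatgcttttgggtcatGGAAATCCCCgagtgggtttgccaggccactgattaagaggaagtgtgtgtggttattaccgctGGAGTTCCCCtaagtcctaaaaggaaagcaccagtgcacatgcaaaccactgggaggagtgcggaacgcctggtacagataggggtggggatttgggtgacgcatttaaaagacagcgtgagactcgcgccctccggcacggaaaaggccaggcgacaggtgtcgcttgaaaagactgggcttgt
BIRC2 chr11:102346964-102347263: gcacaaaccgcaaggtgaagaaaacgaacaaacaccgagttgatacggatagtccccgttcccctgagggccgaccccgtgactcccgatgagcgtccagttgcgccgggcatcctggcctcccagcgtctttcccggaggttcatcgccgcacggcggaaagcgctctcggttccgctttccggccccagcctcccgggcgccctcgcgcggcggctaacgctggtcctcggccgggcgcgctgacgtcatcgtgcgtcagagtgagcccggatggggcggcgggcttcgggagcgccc
FAS chr10:88991181-88991480: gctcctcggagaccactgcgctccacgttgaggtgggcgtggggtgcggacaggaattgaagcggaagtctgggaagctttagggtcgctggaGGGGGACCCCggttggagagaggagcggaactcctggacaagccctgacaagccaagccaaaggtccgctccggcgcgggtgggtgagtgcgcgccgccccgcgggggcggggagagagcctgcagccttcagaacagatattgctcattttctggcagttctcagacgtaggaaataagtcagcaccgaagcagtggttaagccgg

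The BIRC3 window holds 2 NF-kB matches, which begin 199 and 135 bases before the start, and the FAS window holds 1, which begins 157 bases before it. No window of BIRC2, TNFRSF1A, TNFRSF21 or XIAP holds one, and the other FAS windows hold none. An NF-kB match was present in 3956 of 35116 windows of this length (11.3%) and in 13.3% of 27305 genes. The AP-1 motif TGANTCA was searched on both strands too and had 1 match among these genes, in another FAS window, against 7.71% of all windows. The motifs do not overlap in the windows shown. These are letters in a window and nothing was measured at them.

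Of the IAP genes, BIRC3 rose most. It had 11.8, 11.7 and 11.9 TPM in LS411N-BR with doxycycline, against 6.96, 7.23 and 7.14 TPM without it. In LS411N it had 5.46, 5.87 and 5.72 TPM with doxycycline, against 2.35, 2.32 and 3.81 TPM without it. The groups did not overlap in either line, with ratios of means of 1.66 in LS411N-BR and 2.01 in LS411N. The log2 fold change was 0.66 ± 0.07 (SE; limma adjusted p = 7.01e-21) in LS411N-BR and 0.83 ± 0.14 (limma adjusted p = 1.37e-05) in LS411N, and 0.47 and 0.77 rescaled. Without a filter on low genes the call in LS411N was lost (limma adjusted p = 0.0537). The difference of the effects was -0.17 (95% interval from -0.49 to 0.16; limma adjusted p = 0.689). Without replicate 3 of LS411N without doxycycline the difference was -0.34 and BIRC3 was called lower (limma adjusted p = 0.00923).

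BIRC2 had 21.8, 20.9 and 20.7 TPM in LS411N-BR with doxycycline, against 14.9, 16.1 and 14.9 TPM without it. The LS411N libraries had 16.4, 16.0 and 16.9 TPM with doxycycline, against 11.9, 12.2 and 15.7 TPM without it. Again no treated library lay below an untreated one of its line. BIRC2 rose by 0.44 ± 0.07 (log2, SE; limma adjusted p = 1.85e-10) in LS411N-BR and by 0.24 after rescaling. In LS411N its change of 0.30 ± 0.14 was not called as deposited (limma adjusted p = 0.174), but was called rescaled at 0.23 (0.0133) and without replicate 3 of the untreated cells (9.74e-05).

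XIAP had the smallest change of the IAP genes. It ranged from 21.6 to 24.2 TPM in LS411N-BR with doxycycline and from 17.8 to 21.1 TPM without it, a log2 fold change of 0.23 ± 0.07 (SE; limma adjusted p = 0.00113) that was 0.03 and not called after rescaling (0.553). In LS411N it ranged from 15.9 to 16.1 TPM with doxycycline and from 13.7 to 19.8 TPM without it, so that the treated libraries lay within the range of the untreated. Its change there was 0.01 ± 0.14 (limma adjusted p = 0.97), and -0.057 rescaled. Without replicate 3 of the untreated cells it was called higher at 0.17 (limma adjusted p = 0.0243). Of the words of 50 bases in a XIAP transcript of GENCODE 29, 4.76% also occur in other genes, mostly the pseudogene XIAPP1, while BIRC2 and BIRC3 share 11 words with each other. Values of XIAP are to that extent uncertain.

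Ratios within a library do not depend on how the library is scaled. BIRC3 over BIRC2 was 0.560 ± 0.016 in LS411N-BR with doxycycline and 0.464 ± 0.016 without it, and 0.347 ± 0.018 in LS411N with doxycycline and 0.210 ± 0.029 without it (SD, n = 3 each). XIAP over BIRC2 went the other way, at 1.08 ± 0.04 and 1.26 ± 0.06 in LS411N-BR with and without doxycycline, and 0.977 ± 0.024 and 1.21 ± 0.06 in LS411N with and without it. TNFRSF10A over TNFRSF10B was 1.46 ± 0.02 with doxycycline and 1.16 ± 0.03 without it in LS411N-BR, and 0.712 ± 0.023 with it and 0.551 ± 0.050 without it in LS411N. The TRAIL receptors thus stood in opposite order in the lines, with TNFRSF10A above TNFRSF10B in LS411N-BR and below it in LS411N, in all 12 libraries.

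FAS over TNFRSF1A was 0.165 ± 0.001 with doxycycline and 0.114 ± 0.005 without it in LS411N-BR, and 0.0431 ± 0.0026 with it and 0.0249 ± 0.0040 without it in LS411N. TNFRSF11B over TNFRSF12A was 0.140 ± 0.015 with doxycycline and 0.155 ± 0.020 without it in LS411N-BR, where the libraries overlapped, and 0.0651 ± 0.0141 with it and 0.401 ± 0.116 without it in LS411N. Treated and untreated libraries did not overlap in the other 9 of these 10 comparisons. How often the ratios of other pairs of genes would separate in this way was not counted, so this describes these pairs only. An exact two-sided permutation test of 3 against 3 libraries cannot go below p = 0.1. On log2 ratios with no pseudocount those 9 reached it, while the TNFRSF11B ratio in LS411N-BR had an exact p of 0.5 (adjusted over the 10 tests, 0.111 and 0.5). With 1 TPM added to both genes, which makes the ratio depend slightly on scaling, the exact p of that ratio was 0.2 and the others were 0.1.

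**Figure D4:**
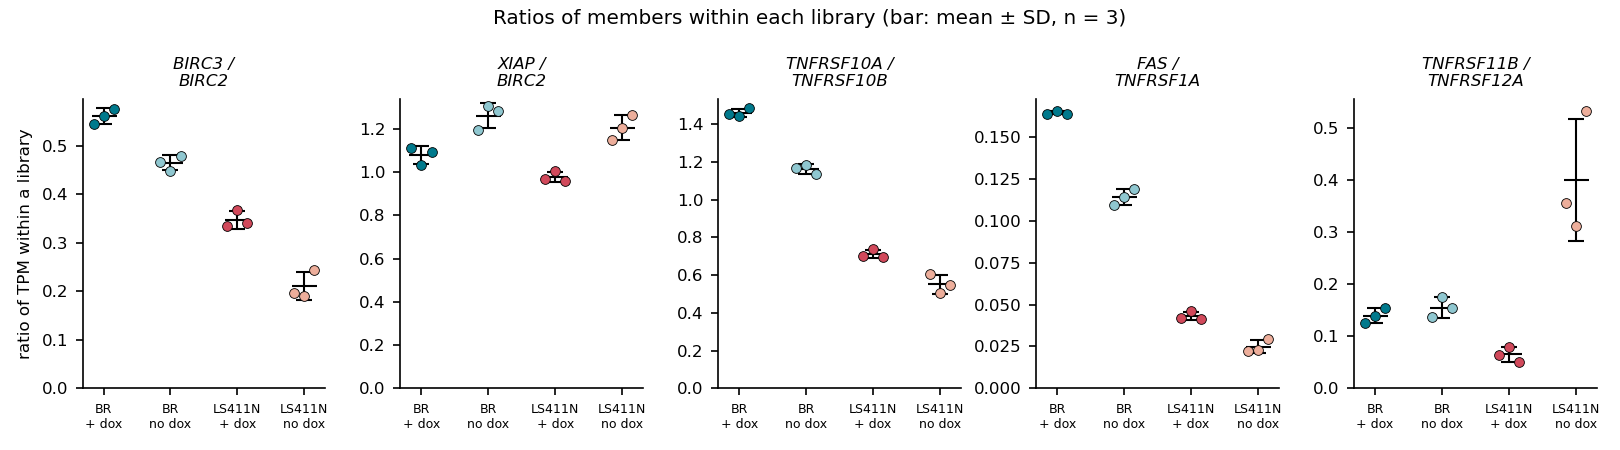
Ratios of the TPM of 5 pairs of members within each library (vertical axes, linear from 0), in LS411N-BR (BR) and LS411N with (+ dox) and without (no dox) doxycycline. Points are libraries and bars the mean ± SD of 3; BIRC3 over BIRC2 is higher with doxycycline in both lines, and XIAP over BIRC2 is lower.

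The difference of the doxycycline effect between lines was not called for 9 of the 10 members. Few genes were called for it at all as deposited, 1.39% of 11674 higher and 0.728% lower. Beyond BIRC3 and TNFRSF12A, the estimates for LS411N-BR minus LS411N were 0.23 for FAS (95% interval from -0.05 to 0.51), 0.19 for TNFRSF10A (from -0.11 to 0.48), 0.22 for TNFRSF10B (from -0.09 to 0.52) and 0.24 for TNFRSF1A (from -0.03 to 0.51). They were 0.12 for TNFRSF21 (from -0.15 to 0.39), 0.14 for BIRC2 (from -0.15 to 0.43) and 0.21 for XIAP (from -0.12 to 0.54). For FAS, which was low in LS411N, the estimate depended on the added 1 TPM. With a pseudocount of 0.1 TPM the FAS difference was 0.01 (limma adjusted p = 0.954). The median of all 11674 genes tested was itself 0.11, and the median of the members was 0.20. Rescaled, the members' median was 0.07. Without replicate 3 of LS411N without doxycycline, the median of 11624 genes was -0.0011 and that of the members 0.08, with 4% of genes called higher and 5.1% lower. The estimates were then 0.13 for FAS, 0.08 for TNFRSF10A, 0.10 for TNFRSF10B, 0.19 for TNFRSF1A, 0.09 for TNFRSF21, 0.022 for BIRC2 and 0.06 for XIAP, none of them called by limma. TNFRSF12A then had -0.24 and was not called, TNFRSF11B had 1.57 and was called higher, and BIRC3 had -0.34 and was called lower (limma adjusted p = 0.00923). The intervals from all libraries do not show that the effects were alike, and they still hold differences of up to 0.39 to 0.54 on the log2 scale.

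Levels were next set side by side between the lines. The 2 tables were scaled separately and list different genes, so the ratios of LS411N-BR over LS411N are given over the shared genes and then as deposited, without a test. Without doxycycline FAS stood at 3.94 and 5.02 times its LS411N level by these scalings, and BIRC3 at 1.98 and 2.52 times. TNFRSF11B stood at 0.185 and 0.235 of its LS411N level, TNFRSF12A at 0.468 and 0.599, and TNFRSF10B at 0.573 and 0.730. Over the shared genes, 15.5% of 11712 genes at or above 1 TPM had all LS411N-BR libraries above all LS411N libraries and 50.1% had all below. FAS exceeded 99.4% of these genes in its difference and BIRC3 97.4%, while TNFRSF12A exceeded 5.86% and TNFRSF11B 0.589%. TNFRSF1A, BIRC2 and XIAP turned direction with the scaling: they were at 0.860, 0.907 and 0.946 over the shared genes, and at 1.10, 1.16 and 1.21 as deposited.

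With doxycycline, FAS in LS411N-BR stood at 3.88 and 4.94 times its LS411N level by these scalings, BIRC3 at 1.63 and 2.08 times, and TNFRSF10A at 1.39 and 1.77 times. TNFRSF12A stood at 0.374 and 0.477 of its LS411N level. TNFRSF11B, at 0.796 over the shared genes and 1.01 as deposited, now overlapped between the lines. For comparison, 31.1% of 11810 genes had all LS411N-BR libraries above and 47.3% had all below.

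Among the members, the order of TPM also differed by group. TNFRSF21 led in LS411N-BR with doxycycline at 73.6 ± 4.5 TPM, ahead of TNFRSF1A at 60.7 ± 2.9 TPM, without overlap (SD, n = 3). In LS411N with doxycycline, TNFRSF1A at 46.8 ± 3.3 TPM and TNFRSF21 at 46.5 ± 2.8 TPM overlapped. Without doxycycline, TNFRSF1A led in both lines, at 48.1 ± 1.2 TPM in LS411N-BR and 43.8 ± 2.8 TPM in LS411N. From the second to the seventh place of LS411N without doxycycline (TNFRSF10B, TNFRSF12A, TNFRSF21, XIAP, TNFRSF10A and BIRC2) each neighbour overlapped the next. TNFRSF11B was lowest in both groups of LS411N-BR and FAS in both groups of LS411N, where it overlapped TNFRSF11B with doxycycline.

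FAS and TNFRSF11B had the widest ranges of group means on the log2(TPM + 1) scale over shared genes, 2.20 and 1.98. Over all 12 libraries and 8423 genes with a mean of at least 5 TPM, the genes whose centred values lay closest to those of FAS, by root mean square difference in log2, were PTPN13 (0.109), UNC13A (0.109), TMCC3 (0.122) and RGS2 (0.152). PTPN13 encodes a protein tyrosine phosphatase and RGS2 a regulator of G protein signalling. Closest to TNFRSF11B, and less close, were PON3 (0.325), STARD13 (0.396), MTCL1 (0.396) and IGFBP4 (0.437). As a description, these patterns follow the lines as well as doxycycline.

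Of 9 ligands of these and related receptors, 7 were under 1 TPM in every library, and the 2 that were tested, TNFSF10 and TNFSF15, were called in both lines in opposite directions. Beside this, 56.1% of all genes were called higher and 11.1% lower in LS411N-BR, and 9.75% and 3.43% in LS411N. FASLG and TNF did not exceed 0.0114 TPM in any library. TNFSF10, which encodes TRAIL, fell in both lines while its receptor TNFRSF10A rose. It had 2.11, 2.12 and 2.00 TPM in LS411N-BR with doxycycline, against 3.72, 3.87 and 3.46 TPM without it, and 0.790, 0.706 and 0.761 TPM in LS411N with doxycycline, against 1.19, 1.21 and 1.71 TPM without it. The groups did not overlap, and the log2 fold changes were -0.61 ± 0.07 (SE; limma adjusted p = 3.69e-15) and -0.43 ± 0.12 (limma adjusted p = 0.00803) in the order of these lines. Their difference, -0.18 as deposited (limma adjusted p = 0.598), was called lower rescaled, at -0.27 (0.0406). Mean TNFSF10 levels with and without doxycycline were 2.08 and 3.68 TPM in LS411N-BR, and 0.752 and 1.37 TPM in LS411N. The added 1 TPM shrinks a change more at the lower levels of LS411N. The called difference therefore does not show a larger fall in LS411N-BR. TNFSF10 in LS411N passed the filter of 1 TPM only through the libraries without doxycycline, and TNFSF15 in both lines only through those with it, so that a difference was built into these tests. Without replicate 3 of the untreated cells TNFSF10 was not tested in LS411N. TNFSF15 rose, to 1.62 ± 0.04 TPM in LS411N-BR with doxycycline against 0.780 ± 0.042 TPM without it, and to 1.48 ± 0.05 TPM in LS411N with doxycycline against 0.841 ± 0.118 TPM without it (SD, n = 3).

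Of 15 other receptors and decoys, 5 were tested. TNFRSF11A, the RANK receptor of the ligand that osteoprotegerin binds, fell in both lines. It averaged 9.85 ± 0.31 TPM in LS411N-BR with doxycycline and 16.4 ± 1.5 TPM without it, and 6.88 ± 0.60 TPM in LS411N with doxycycline and 13.0 ± 1.6 TPM without it (SD, n = 3). Its log2 fold changes were -0.68 ± 0.07 (SE; limma adjusted p = 7.54e-23) in LS411N-BR and -0.82 ± 0.14 (limma adjusted p = 1.55e-05) in LS411N. TNFRSF10D, a TRAIL decoy receptor, fell by 0.18 in LS411N-BR (limma adjusted p = 0.0105), and had -0.08 in LS411N, where it was not called. TNFRSF1B, the other TNF receptor, rose by 0.67 in LS411N-BR to 22.4 ± 1.8 TPM with doxycycline against 13.7 ± 0.3 TPM without it, and in LS411N had 0.32, not called as deposited (limma adjusted p = 0.127), but called higher rescaled at 0.25 (0.00636) and without replicate 3 of the untreated cells at 0.43 (0.000212). As deposited, 2 of the 5 rose and 2 fell in LS411N-BR, beside 56.1% of all genes called higher and 11.1% lower. In LS411N 0 rose and 1 fell, beside 9.75% and 3.43%. Rescaled, 1 rose and 3 fell in LS411N-BR, beside 32.3% and 32.2%. In LS411N 1 rose and 1 fell rescaled, beside 18.8% and 16%. Without that replicate 3, 1 rose and 2 fell in LS411N, beside 53% and 6.32%.

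All 20 genes of the list of death domain adaptors, caspases and their inhibitor were tested. In LS411N-BR 13 rose and none fell, beside the 56.1% of all genes called higher and 11.1% lower. Rescaled, 10 rose and 3 fell, beside 32.3% and 32.2%. As deposited, the list's median was 0.29, against 0.18 for all genes. PEA15, a death effector domain protein, averaged 30.8 ± 2.3 TPM in LS411N-BR with doxycycline and 19.8 ± 0.9 TPM without it (SD, n = 3), and rose there by 0.61 ± 0.07 (log2, SE; limma adjusted p = 8.32e-20). CASP9, the initiator caspase of the mitochondrial pathway, rose by 0.55, and FAF1, a FAS-associated factor, by 0.45 in that line. In LS411N these were not called as deposited, with 0.26 for PEA15, 0.13 for CASP9 and 0.16 for FAF1, but without replicate 3 of the untreated cells they were called higher at 0.24, 0.33 and 0.28 in this order. In LS411N 1 gene of the list was called higher as deposited, beside 9.75% of all genes. It was RIPK3, the kinase of necroptosis (0.39 ± 0.12, limma adjusted p = 0.0195), named after its value was seen. Rescaled, 4 rose and none fell in LS411N, beside 18.8% of all genes called higher, and without that replicate 3 as many as 14 rose, beside 53%.

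Of the IAP relatives, antagonists and regulators, 8 of the 12 listed were tested; 6 rose in LS411N-BR and none fell, beside 56.1% of all genes called higher and 11.1% lower. In LS411N limma called 0 of the 8 as deposited, beside 9.75% of all genes called higher and 3.43% lower, and 0 had an unadjusted p under 0.05. Without replicate 3 of the untreated cells 6 rose there, beside 53% of all genes. Rescaled, 3 rose in LS411N-BR, beside 32.3% of all genes, and 1 fell in LS411N, beside 16% of all genes. The latter was BIRC5, or survivin (-0.14, limma adjusted p = 0.0474), named after its value was seen. Without that replicate 3 it had 0.02 and was not called. AREL1, a ubiquitin ligase of IAP antagonists, rose by 0.52, ARIH1 by 0.40, DIABLO, which displaces caspases from IAP proteins, by 0.35, and HTRA2 by 0.25 in LS411N-BR, HTRA2 no longer being called after rescaling. DIABLO averaged 25.3 ± 1.4 TPM in LS411N-BR with doxycycline and 19.5 ± 0.8 TPM without it (SD, n = 3).

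Among TRAF proteins, ubiquitin ligases and deubiquitinases of the TNF receptor complex, 20 of 21 genes were tested. In LS411N-BR 11 rose and 1 fell, a share near the 56.1% and 11.1% of all genes. Rescaled, 4 rose and 7 fell, beside 32.3% and 32.2%, so that the balance of rises and falls turned with the scaling. In LS411N 0 rose and 1 fell as deposited, beside 9.75% and 3.43%, and 3 rose and 4 fell rescaled, beside 18.8% and 16%. Without replicate 3 of the untreated cells 9 rose and 2 fell, beside 53% and 6.32%. SPATA2, which recruits the deubiquitinase CYLD, rose by 0.60, SHARPIN, a subunit of the linear ubiquitin ligase, by 0.51, and OTUD7B by 0.46 in LS411N-BR. In LS411N their means were also higher with doxycycline, though the groups overlapped. They were 4.38 against 3.44 TPM for SPATA2, 11.6 against 9.43 TPM for SHARPIN and 9.82 against 8.28 TPM for OTUD7B. For the difference between lines 0 genes of this list were called as deposited, beside 1.39% of all genes called higher and 0.728% lower. TRAF5, an adaptor of TNF receptors, fell in LS411N (-0.41; limma adjusted p = 0.0393), at 7.94 ± 0.38 TPM with doxycycline against 11.0 ± 1.8 TPM without it (SD, n = 3).

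In the list of NF-kB subunits, inhibitors and kinases, 16 of 16 genes were tested; 10 rose in LS411N-BR and none fell, beside 56.1% of all genes called higher, and rescaled 6 rose and 2 fell, beside 32.3% and 32.2%. In LS411N 1 rose and 0 fell as deposited, beside 9.75% and 3.43%, and 2 rose and 2 fell rescaled, beside 18.8% and 16%. Without replicate 3 of the untreated cells 9 rose and 1 fell, beside 53% and 6.32%. NFKBIZ, an atypical nuclear inhibitor protein, had 13.0 ± 1.0 TPM in LS411N-BR with doxycycline and 7.02 ± 0.62 TPM without it, against 6.15 ± 0.24 TPM in LS411N with doxycycline and 5.65 ± 0.79 TPM without it (SD, n = 3). Its difference of effects between the lines was called, at 0.69 ± 0.14 (SE; limma adjusted p = 0.00704). NFKBIB, an inhibitor that holds NF-kB in the cytoplasm, rose in both lines, by 0.49 in LS411N-BR and 0.47 in LS411N (limma adjusted p = 9.52e-13 and 0.0149). NFKB2 and REL, subunits of NF-kB, rose by 0.42 and 0.38 in LS411N-BR and had 0.28 and 0.09 in LS411N, where they were not called as deposited. NFKB2 was called higher there rescaled, at 0.21 (limma adjusted p = 0.0373), and without replicate 3 of the untreated cells both were called, at 0.35 for NFKB2 and 0.15 for REL. The plot of the pathway lists sets each gene against the median of all genes.

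**Figure D5:**
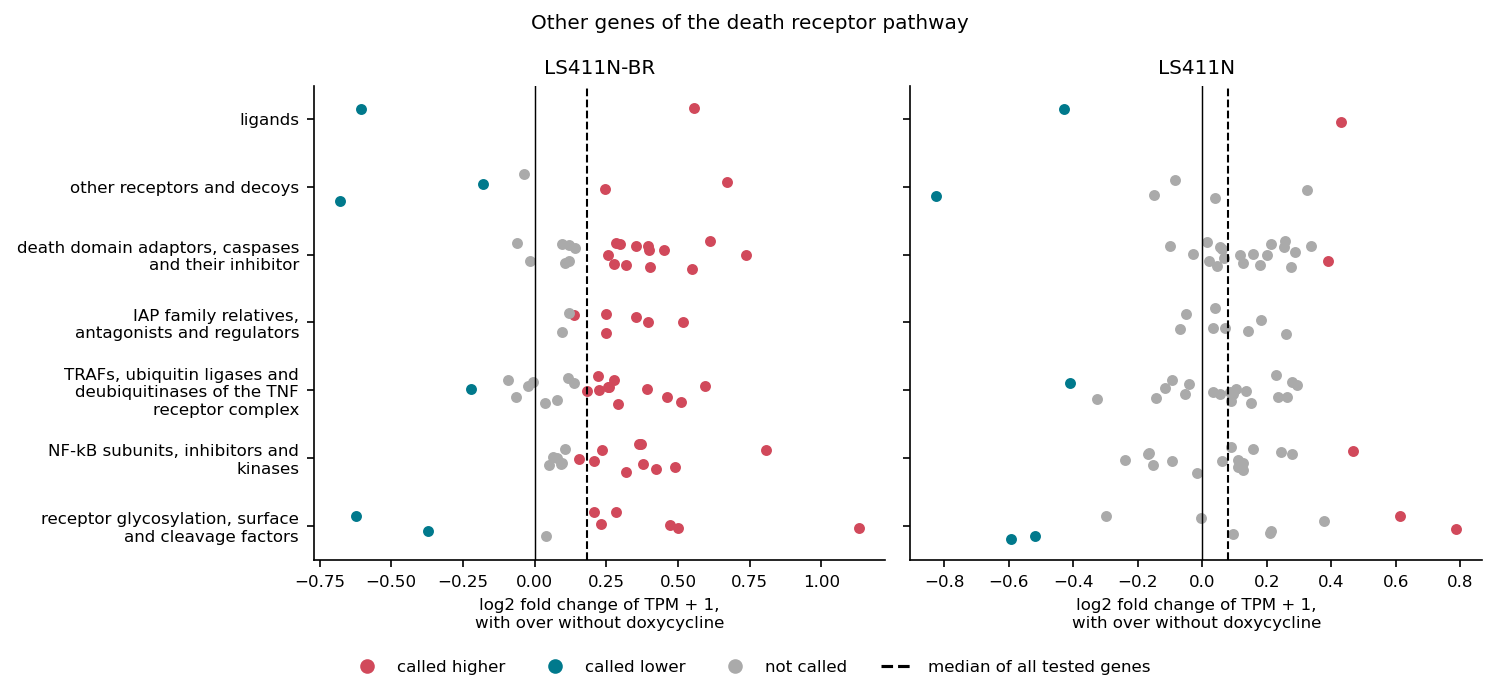
Log2 fold change of TPM + 1, with over without doxycycline, of every tested gene of 7 lists (rows) in LS411N-BR and in LS411N (horizontal axes, with their own ranges), as deposited. Each point is a gene, red where called higher, teal where called lower and grey where not called at a limma adjusted p under 0.05, and the dashed line is the median of all genes tested; in the adaptor and caspase row, 13 of 20 genes are called higher in LS411N-BR and 1 in LS411N.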

How the data were processed

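RNA of 12 libraries of LS411N and LS411N-BR was sequenced after stranded mRNA library preparation, per the labels' protocols. The authors deposited TPM per gene, 1 table per line, each library summing to 1000000 TPM. Per the submitters' processing notes the tools were STAR and DESeq2 and the build GRCh38, with no role stated; how the TPM were computed, on which annotation and from how many reads, was not given in the sources used here.

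Changes were tested on log2(TPM + 1) with limma 3.58.1 (R 4.3.3, intensity trend), over genes that reached 1 TPM in 3 or more of the compared libraries, at a Benjamini-Hochberg adjusted p under 0.05 over all genes tested. The difference between lines was the interaction term over 12 libraries. The fold change scale understates low genes. Ratios used exact permutation tests (scipy 1.17.1); their test with no pseudocount, and the lists without 1 library, were added after seeing the data. Alternatives were another pseudocount, other filters, scalings and moderation, a replicate block and leaving out each library.

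The 10 members and the 7 gene lists were chosen with earlier results of these data known. Named were MUC1, the members, up to 4 called genes of each list with the largest change in either line (a gene that this rule takes is not reported here), and the 4 genes nearest in pattern to the 2 members of widest range. Of the listed IAP relatives, 11 of 12 symbols were matched. Promoter windows came from RefSeq (GRCh38.p14) and transcripts from GENCODE 29; sequences of TNFRSF10A, TNFRSF10B, TNFRSF11B and TNFRSF12A are not given here.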

Additional observations from a re-analysis of the deposited data

Results flagged for a closer look

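TNFRSF11B was the member whose doxycycline effect differed between the lines by the interaction test of limma. The difference, LS411N-BR minus LS411N, was 1.69 ± 0.17 on the log2(TPM + 1) scale (SE; limma adjusted p = 1.5e-06). Its mean was 2.31 ± 0.16 TPM in LS411N-BR with doxycycline and 2.08 ± 0.12 TPM without it, and 2.28 ± 0.60 TPM in LS411N with doxycycline and 8.82 ± 1.56 TPM without it (SD, n = 3). The 3 libraries of LS411N without doxycycline were all above the 9 others. Leaving out 1 library at a time gave differences from 1.57 to 1.84.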

How the results depend on the processing

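TPM keep no read depth, so counting error is unknown, and values of low genes are the least certain in this respect. FAS was near 1 TPM in LS411N without doxycycline, with 0.937 to 1.38 TPM. TNFRSF11B was low, at 1.78 to 2.95 TPM, in every group but LS411N without doxycycline. Under the alternatives of pseudocount, shared genes, trend and robust moderation no member changed its call. Without a filter 3 members were called in LS411N instead of 6. Leaving out 1 library gave 5 to 9 called members in LS411N, 9 in LS411N-BR each time and 1 to 2 for the difference. All genes called in LS411N were 1487, and 806 without a filter, 3926 with median-of-ratios rescaling (2124 higher and 1802 lower, against 1100 and 387), 3728 rescaled over protein-coding genes, 2637 with the spread of all 12 libraries, and 624 to 6637 without 1 library, the last without replicate 3 of the untreated cells. In LS411N-BR they were 7603 (6351 higher, 1252 lower), 3652 higher and 3641 lower after median-of-ratios rescaling, and 6578 to 7703 without 1 library. For the difference they were 247, and 109 with 0.1 TPM added, 140 with a filter of 5 TPM, 1188 with median-of-ratios rescaling, 874 over protein-coding genes, and 125 to 1058 without 1 library. The causes were not tested.

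Signs turned for changes near 0: in LS411N, TNFRSF10B (-0.0369 to 0.19 without 1 library) and XIAP (-0.0569 with median-of-ratios rescaling, -0.0322 over protein-coding genes, -0.0867 to 0.17 without 1 library); in LS411N-BR, TNFRSF11B (-0.0382 and -0.0118 with these rescalings); for the difference, FAS (-0.0104 over protein-coding genes) and TNFRSF21 (-0.009 and -0.0049 with these rescalings). In LS411N-BR, TNFRSF12A was lost over protein-coding genes too (limma adjusted p = 0.0508), and XIAP also there (0.189) and with the spread of all 12 libraries (0.102).

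Replicate numbers are shared between groups but did not pair the libraries: same-numbered libraries correlated in their deviations at 0.03, 0.01 and 0.17 in LS411N and at 0.02, 0.0031 and 0.01 in LS411N-BR, and most did not correlate best with their own number. With the replicate block, 900 genes were called in LS411N, TNFRSF10A was not called there (limma adjusted p = 0.182), and no other member changed its call.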

Other observations

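Genes that act on the receptors at the surface, by glycosylation, cleavage or uptake, were followed as a further list of 12, of which 9 were tested in LS411N-BR and 10 in LS411N. In LS411N-BR 6 rose and 2 fell, beside 56.1% of all genes called higher and 11.1% called lower. Rescaled, 3 rose and 3 fell in that line, beside 32.3% and 32.2%. In LS411N 2 rose and 2 fell, beside 9.75% and 3.43% of all genes, while rescaled 3 rose and 3 fell, beside 18.8% and 16%. Without replicate 3 of the untreated cells 7 rose and 3 fell, beside 53% and 6.32%. TMBIM1, a membrane protein known to lower FAS at the cell surface, rose in both lines together with FAS. It averaged 55.6 ± 5.0 TPM in LS411N-BR with doxycycline and 24.7 ± 0.2 TPM without it, and 32.9 ± 2.7 TPM in LS411N with doxycycline and 18.6 ± 0.3 TPM without it (SD, n = 3), with log2 fold changes of 1.13 ± 0.06 (SE; limma adjusted p = 1.35e-67) and 0.79 ± 0.14 (limma adjusted p = 3.79e-05) in the order of these lines. GALNT3, an enzyme that starts mucin-type O-glycans, rose by 0.50 in LS411N-BR and 0.61 in LS411N. GMDS, which makes the sugar donor of fucosylation, fell by 0.62 in LS411N-BR and by 0.52 in LS411N (-0.30 without replicate 3 of the untreated cells), where it averaged 60.7 ± 3.2 TPM with doxycycline and 89.4 ± 24.8 TPM without it.

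FAIM2, a gene of a protein that inhibits FAS signalling, was nearly absent from LS411N-BR, at 0.011 ± 0.008 TPM with doxycycline and 0.014 ± 0.005 TPM without it, and was not tested there. In LS411N it had 1.04 ± 0.05 TPM with doxycycline and 2.08 ± 0.22 TPM without it (SD, n = 3), a log2 fold change of -0.59 ± 0.12 (SE; limma adjusted p = 0.000218). Its LS411N libraries with doxycycline had 0.996, 1.10 and 1.03 TPM and would not have passed the filter of 1 TPM alone. FAIM2 thus passed it through the libraries without doxycycline, so that a fall was favoured in that test.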
